A study of Homo sapiens with 12 samples.

Results

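RAB GTPase genes were examined in 12 PAR-CLIP libraries of HepG2 cells, a human hepatocyte-like liver cancer line. PAR-CLIP crosslinks RNA that carries 4-thiouridine to a bound protein, and each cluster is an interval where crosslinked reads of 1 library piled up. The members were the protein-coding genes of GENCODE release 44 whose symbol is RAB followed by digits and optional letters, which gave 64 of 20046 protein-coding genes. Among the matching symbols, RAB3IP and RAB5IF encode proteins that are not RAB GTPases and were left out. Clusters were assigned to a RAB gene when their midpoint lay in it on the same strand, and 381 of the 102250 clusters did so.

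The cells were wild-type HepG2 in every library, labelled as liver and epithelial-like, and no library had a genetic or drug treatment beyond the 4-thiouridine that all received. The IGF2BP group held 8 libraries, 2 for IGF2BP1, 2 for IGF2BP2 and 4 for IGF2BP3, of which 2 carry the extra label bio2. The METTL1-WDR4 group held 4 libraries, 2 for METTL1 and 2 for WDR4. IGF2BP1, IGF2BP2 and IGF2BP3 are KH-domain RNA-binding proteins whose role as readers of m7G inside mRNAs was under study, and METTL1 with its partner WDR4 forms the methyltransferase that writes m7G. The comparison asks whether the reader proteins and the writer complex contacted the same RAB transcripts at the same places.

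RAB proteins are small GTPases that switch between a GDP-bound form and a GTP-bound form that recruits effectors to a membrane. Exchange factors load GTP, GTPase-activating proteins return the RAB to its GDP form, and escort proteins and GDP dissociation inhibitors deliver the prenylated protein to membranes and take it off again. Each membrane compartment carries its own RABs, and hepatocytes use them in lipoprotein and plasma protein secretion, receptor recycling and lysosomal delivery.

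The libraries held 4581 to 15701 clusters, with the largest numbers in the IGF2BP1 pair. The deposited intervals carried no read counts, so depth per cluster is unknown and a gene without a cluster is one where none was called. Among 8 hepatocyte markers, 7 had an exonic cluster, and TTR had none. APOB, SERPINA1 and FGB had one in all 12 libraries. None of 4 markers of other cell types (COL1A1, KRT5, PECAM1, PTPRC) had an exonic cluster.

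Windows of 30 bases at the centre of exonic RAB sites are printed first, 1 for each gene at the site found in the most libraries, because the location of the clusters within these transcripts is what the results below turn on. A site is the merged interval of overlapping clusters of different libraries. All positions are hg38, and the sequences were read from that genome on the strand of the gene, 5′ to 3′. Capitals mark CATA, CATC or CATT, the DNA letters of an element described for IGF2BP proteins. Such a match is a description of the letters in the window. The RAB7A window is chr3:128813485-128813514 on the plus strand and the RAB5C window chr17:42125505-42125534 on the minus strand, and these sites were found in all 12 libraries. The RAB5B window is chr12:55994431-55994460 on the plus strand, from a site found in 11 libraries. The 3 sites found in 9 libraries were in RAB6A (chr11:73677467-73677496, minus strand), RAB14 (chr9:121193366-121193395, minus strand) and RAB9A (chrX:13709375-13709404, plus strand). The RAB10 window (chr2:26135080-26135109, plus strand) came from a site in 8 libraries and the RAB22A window (chr20:58364448-58364477, plus strand) from a site in 6. All but the RAB14 window, which is coding sequence, lie in 3′ UTRs. The windows of RAB8A and RAB6D are printed with their paralogs further on, those of RAB2A and RAB2B are not printed, and second sites of these genes, some in more libraries than the RAB22A site, are given by their position alone.
RAB7A: acaattcccctctcctcttccaaacaaaac
RAB5C: cccacttcctcccctttctactgctctccc
RAB5B: tatcggctgccttccctctacttcctacca
RAB6A: ttaccccCATTccctattaccctattctta
RAB14: caactactcttaCATCtttaaatatattat
RAB9A: taaccaactcacaCATAtacacaaaatcaa
RAB10: ataaaccactctgtcCATTtttaactctaa
RAB22A: acaaaaatcccaaaccttcCATCtatccct

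The RAB7A, RAB5C and RAB5B windows hold none of the 4-base forms, while a second RAB7A site, in 10 libraries, holds 1. RNase T1, which trimmed the RNA, cuts after G, and per library 74.5% to 94.7% of clusters were preceded by a G. The 5′ end of most clusters, and with it the window, therefore depends on where G lies. The 3′ ends were not examined in this way.

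Clusters fell in 36 of the 64 RAB genes, and in the exons of 33. Of all protein-coding genes 29.4% had an exonic cluster in at least 1 library, against 51.6% of RAB genes. The 381 RAB clusters comprised 265 in 3′ UTRs (69.6%), 87 in introns (22.8%), 24 in coding sequence (6.30%), 3 in 5′ UTRs and 2 in other exons. RAB5B, RAB5C and RAB7A were the RAB genes with an exonic cluster in every library, which is 4.69% of RAB genes against a background of 1.14%. Together they held 96 of the 292 exonic RAB clusters (32.9%).

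**Figure D1:**
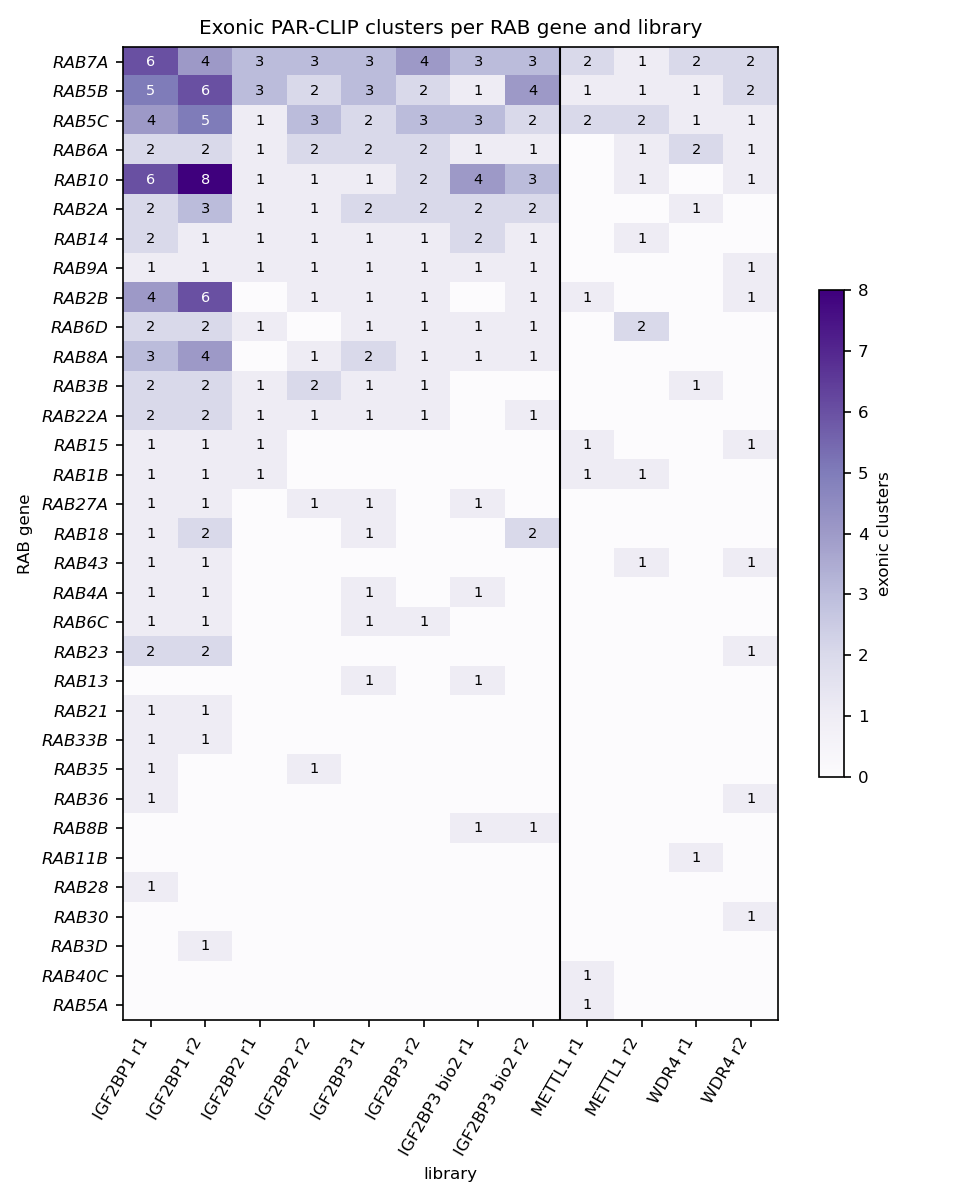
Number of exonic clusters (colour and printed number, blank for 0) of each of the 33 RAB genes with any (y axis) in each of the 12 libraries (x axis). The vertical line separates the 8 IGF2BP libraries from the 4 METTL1 and WDR4 libraries. RAB7A, RAB5B and RAB5C are filled in every column, and RAB10 reaches 8 clusters in IGF2BP1 replicate 2.

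A site was called reproducible for a protein when at least 2 of its libraries had it. IGF2BP1 had a reproducible exonic site in 21 RAB genes, or 32.8%, against 15.6% of all protein-coding genes. IGF2BP3 had one in 19 (29.7% against 13.7%) and IGF2BP2 in 10 (15.6% against 5.78%). WDR4 had one in 4 RAB genes (6.25% against 3.22%), which were RAB5B, RAB5C, RAB6A and RAB7A. METTL1 had one in RAB5C and RAB7A alone, so that these 2 genes (3.12%, background 2.84%) had reproducible sites of all 5 proteins, against 1.49% of all genes. The IGF2BP3 count rests on 4 libraries and the others on 2 each, and was 14 without the bio2 libraries. All clusters of RAB5C also lie in the readthrough gene ENSG00000267261, so the METTL1 count was 1 when clusters in more than 1 gene were left out. The counts were then 20 for IGF2BP1, 9 for IGF2BP2, 17 for IGF2BP3 and 3 for WDR4.

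RAB mRNAs have short coding sequences and long 3′ UTRs. The median coding sequence was 651 nt for RAB genes and 1308 nt for other protein-coding genes, and the median 3′ UTR was 2015.5 nt against 1062 nt. Genes with longer 3′ UTRs had sites more often in general. Among genes with 3′ UTRs of 1 to 3 kb, 13 of 28 RAB genes (46.4%) had a reproducible IGF2BP1 site against 19.6% of other genes. Among genes with 3′ UTRs under 1 kb the shares were 5.56% of 18 RAB genes and 6.41% of others, and among those of 3 kb and over they were 38.9% of 18 RAB genes and 34.0% of others. For IGF2BP3 the corresponding shares were 39.3% against 16.9% in the middle class, 11.1% against 6.37% in the short class and 33.3% against 28.7% in the long class. These shares are descriptions and no test was made of them. mRNA abundance was not used here, so its part in which genes had clusters was not tested.

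RAB GTPases of early endosomes held 76 exonic clusters in 6 of 11 genes. RAB5B and RAB5C, which act with RAB5A in early endosome fusion, had exonic clusters in every library. RAB5B had 5 and 6 in the IGF2BP1 libraries, 3 and 2 in the IGF2BP2 libraries, 3, 2, 1 and 4 in the IGF2BP3 libraries (the last pair bio2), 1 and 1 in the METTL1 libraries and 1 and 2 in the WDR4 libraries. The RAB5B site in 11 libraries lies 2233 nt after the stop codon of a 4471-nt 3′ UTR, and METTL1 replicate 2 lacked it but had a cluster at the site 1158 nt after the stop codon, which 7 IGF2BP libraries also had. RAB5C had 4 and 5 exonic clusters in the IGF2BP1 libraries, 1 and 3 in the IGF2BP2 libraries, 2, 3, 3 and 2 in the IGF2BP3 libraries, 2 and 2 in the METTL1 libraries and 1 and 1 in the WDR4 libraries. The highest counts of both genes were in the IGF2BP1 libraries, which also had the most clusters in all. The site in all 12 libraries lies 263 nt after the RAB5C stop codon. With 9 sites in an 804-nt 3′ UTR, RAB5C had 11.2 sites per kb, the highest density of the RAB genes. Counting only sites found in at least 2 libraries, RAB5C had 4 sites, or 4.98 per kb, also the highest.

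RAB5A differed from its relatives in where the clusters lay. It had 1 exonic cluster, in the 5′ UTR and in METTL1 replicate 1, but 18 intron clusters. The intron site at chr3:19953036-19953085 was found in 10 libraries, 7 of IGF2BP proteins and 3 of METTL1 and WDR4. The same interval also lies in a lncRNA gene, ENSG00000289138, on the same strand, so the host transcript cannot be told apart here. RAB22A, which acts between early endosomes and recycling tubules, had exonic clusters in 7 IGF2BP libraries and in none of METTL1 or WDR4. RAB4A, a GTPase of rapid recycling, had them in 4 IGF2BP libraries at a site 81 nt after its stop codon, and RAB21 had 1 in each IGF2BP1 library, at different sites whose centres occurred at 2 and at 61692 places in the genome. RAB17, an epithelial RAB, had 9 intron clusters and no exonic cluster. RAB20, RAB24, RAB31 and RAB4B had no cluster.

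Of the late endosomal and lysosomal RABs, RAB7A and RAB9A held all 45 exonic clusters. RAB7A, which directs late endosomes to lysosomes, had 6 and 4 exonic clusters in the IGF2BP1 libraries, 3 and 3 in the IGF2BP2 libraries, 3, 4, 3 and 3 in the IGF2BP3 libraries, 2 and 1 in the METTL1 libraries and 2 and 2 in the WDR4 libraries. Every IGF2BP library exceeded every METTL1 and WDR4 library in this raw count, which was not scaled to the size of the library. The IGF2BP libraries held 2460 to 8845 exonic clusters of protein-coding genes, and the METTL1 and WDR4 libraries 2088 to 2709. The site found in all 12 libraries is centred 77 nt after the stop codon of a 1376-nt 3′ UTR. The next site, 167 nt after the stop codon, was found in all 8 IGF2BP libraries and both WDR4 libraries and in neither METTL1 library. Its window runs into a CA repeat and its central bases occurred at a median of 3 places in the genome. Of the 36 exonic RAB7A clusters, 20 had a centre that occurred once. RAB9A, which acts in transport from late endosomes to the trans-Golgi, had exactly 1 exonic cluster in each of the 8 IGF2BP libraries and 1 in WDR4 replicate 2, all at a single site 37 nt after the stop codon. RAB29, RAB32, RAB38, RAB42, RAB7B and RAB9B had no cluster.

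**Figure D2:**
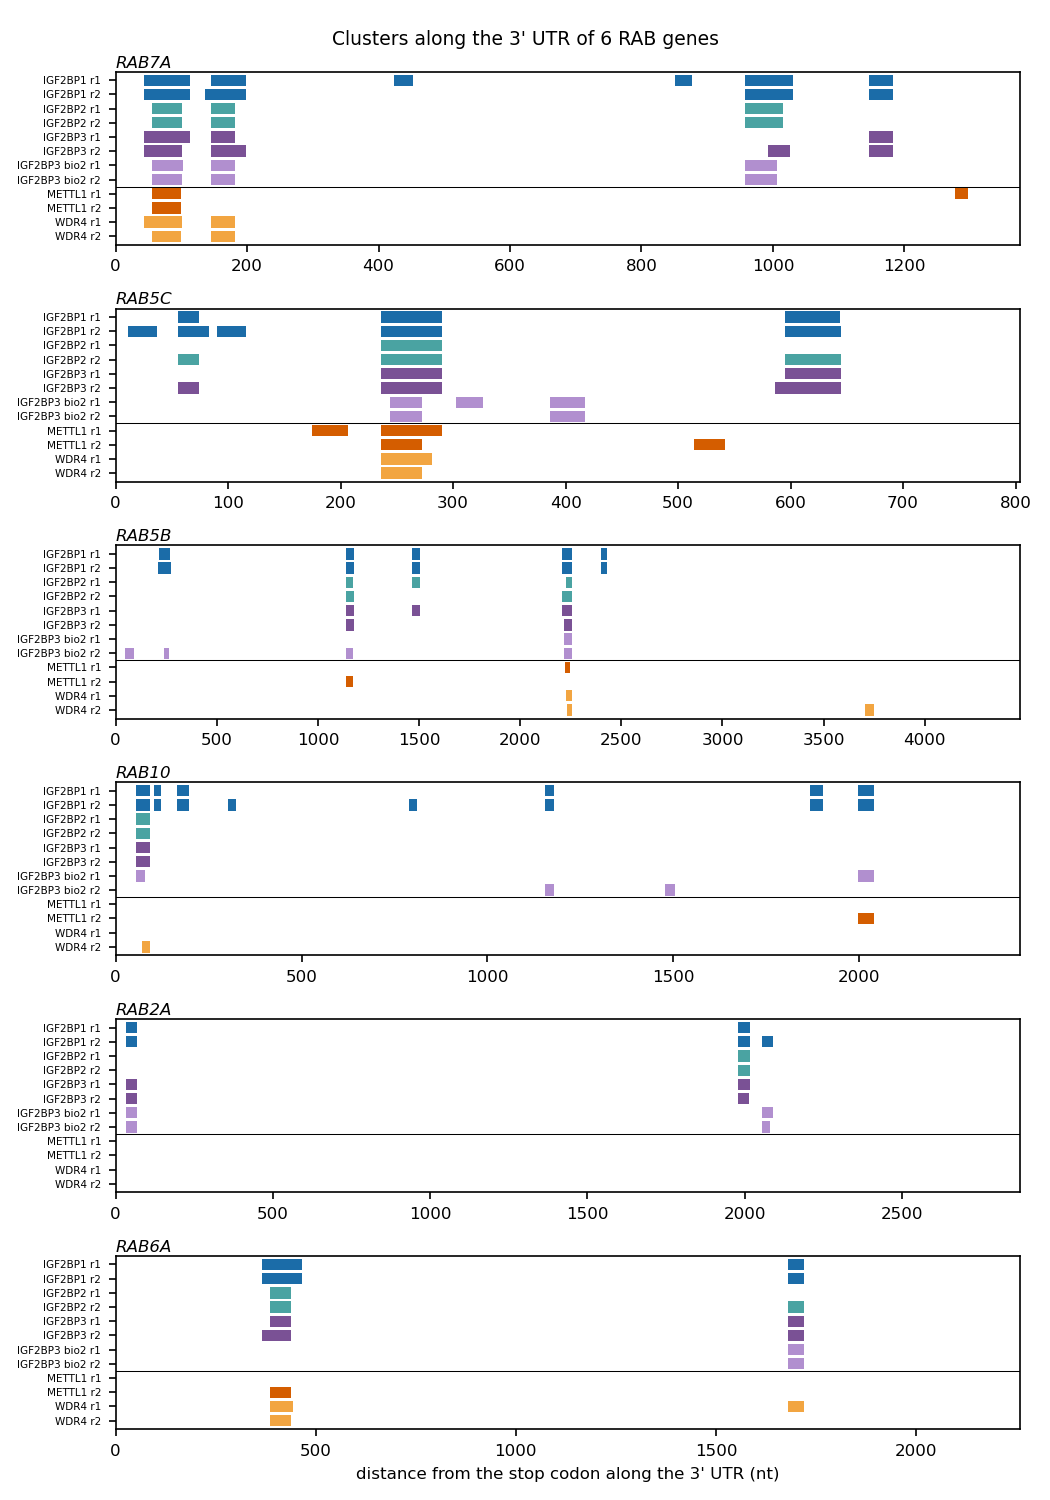
Clusters along the 3′ UTR of 6 RAB genes, drawn as bars to scale at their distance in nt from the stop codon (x axis, 1 panel per gene) in each of the 12 libraries (y axis, coloured by protein). The horizontal line separates IGF2BP libraries from METTL1 and WDR4 libraries. The site 77 nt after the RAB7A stop codon and the site 263 nt after the RAB5C stop codon are present in all 12 libraries, while no METTL1 or WDR4 library has a bar in RAB2A.

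RABs of recycling and exocytosis held 64 exonic clusters in 8 of 11 genes. RAB10, which acts in vesicle delivery to the plasma membrane, had 6 and 8 exonic clusters in the IGF2BP1 libraries, 1 and 1 in the IGF2BP2 libraries, 1, 2, 4 and 3 in the IGF2BP3 libraries, 0 and 1 in the METTL1 libraries and 0 and 1 in the WDR4 libraries. All 28 had a centre that occurred once in the genome. The most widely found RAB10 site, 73 nt after the stop codon, had 7 IGF2BP libraries and WDR4 replicate 2. RAB14, which acts between the Golgi and endosomes, had 9 of its 11 exonic clusters in coding sequence at a single site, centred at nt 32 of its 648-nt reading frame, in all 8 IGF2BP libraries and METTL1 replicate 2. RAB35 had 1 cluster in each of 2 IGF2BP libraries, RAB15 had a site in 5 libraries, and RAB11B, a marker of recycling endosomes, had 1 cluster in WDR4 replicate 1 whose central bases occurred at 38 places. RAB11A, RAB12 and RAB25 had no cluster.

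RAB8A, a close relative of RAB10 and RAB13 that acts in polarised secretion, had exonic clusters in 7 IGF2BP libraries and in none of METTL1 or WDR4, and 7 of its 13 were at 1 coding site, chr19:16111996-16112025 on the plus strand. RAB13 had its 2 clusters (chr1:153986113-153986145, minus strand) and RAB10 had 1 of its coding clusters (chr2:26034706-26034735, plus strand) over the matching stretch of their own reading frames. The windows are printed to show this correspondence, with lower case for bases that match RAB8A and capitals for those that differ. They cover nt 95 to 124 of the coding sequence in RAB8A, RAB8B and RAB13 and nt 98 to 127 in RAB10.
RAB8A: ccttcaactccacttttatctccaccatag
RAB10: ccttcaaTAcTacCtttatTtccaccatag
RAB13: ActtcaacAAcacttACatctccaccatCg
RAB8B: ccttcaacAccacCttCatctccaccatCg

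Against RAB8A the stretch differed at 5 of 30 bases in RAB10, 6 in RAB13 and 4 in RAB8B, and every other RAB gene differed at 9 bases or more. RAB8A had the site in 7 libraries, RAB13 in 2 (IGF2BP3 replicate 1 and bio2 replicate 1) and RAB10 in 1, all of IGF2BP proteins, while RAB8B had none there. The reads behind these intervals were mapped with mismatches allowed, and whether reads of one paralog were placed on another was not tested. RAB13 clusters also lie in a readthrough gene, ENSG00000285641, and none had a centre that occurred once. The RAB8B clusters, 1 in each bio2 library, were in its 3′ UTR, 708 nt after the stop codon. This coding correspondence was chosen for description after the sites were seen.

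RABs of the endoplasmic reticulum and Golgi held 84 exonic clusters in 11 of 19 genes. RAB6A, the main Golgi RAB, had 2 and 2 exonic clusters in the IGF2BP1 libraries, 1 and 2 in the IGF2BP2 libraries, 2, 2, 1 and 1 in the IGF2BP3 libraries, 0 and 1 in the METTL1 libraries and 2 and 1 in the WDR4 libraries. Its clusters fell at a site 416 nt after the stop codon, in 9 libraries but neither bio2 library, and a site 1699 nt after it, in 8 libraries including both bio2 libraries. Of the 17 exonic RAB6A clusters, 4 had a centre that occurred once in the genome. The centres occurred at a median of 2 places at the first site and 3 places at the second. RAB6C and RAB6D are intronless copies of RAB6A. The window of the second RAB6A site (chr11, minus strand) is identical to that of the RAB6D site at chr2:131361398-131361427 on the minus strand, shown because the reads of the 2 genes cannot be told apart there.
RAB6A and RAB6D: aaaaatatcttCATActtcctCATCccctc

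RAB6D had this site in 8 libraries, and none of the 11 exonic clusters of RAB6D or the 4 of RAB6C had a centre that occurred once. The 8 RAB6D libraries matched 7 IGF2BP libraries and METTL1 replicate 2. Without RAB6C and RAB6D the difference in the share of clusters between the 2 groups, given below, was 0.164 percentage points in place of 0.177.

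RAB2A and RAB2B act between the endoplasmic reticulum and Golgi and in lysosome fusion. RAB2A had 2 and 3 exonic clusters in the IGF2BP1 libraries, 1 and 1 in the IGF2BP2 libraries, 2 in each of the 4 IGF2BP3 libraries, 0 in both METTL1 libraries and 1 and 0 in the WDR4 libraries. The single WDR4 cluster was in its 5′ UTR, and its 15 3′ UTR clusters were all from IGF2BP libraries. They fell 50 nt, 1998 nt and 2072 nt after the stop codon, and the site at 1998 nt was found in both libraries of IGF2BP1, IGF2BP2 and IGF2BP3 but in neither bio2 library. RAB2B had 10 of its 16 exonic clusters in the IGF2BP1 libraries, and its most widely found site, in 7 libraries, had central bases that occurred at a median of 169 places. RAB1B, a GTPase of export from the endoplasmic reticulum, had exonic clusters in 5 libraries, whereas its paralog RAB1A had 9 intron clusters and none in exons. RAB18, a lipid droplet and endoplasmic reticulum RAB, had exonic clusters in 4 IGF2BP libraries. RAB33B, RAB43, RAB30 and RAB36 had exonic clusters in 1 to 4 libraries. RAB6B had 1 intron cluster, and RAB19, RAB33A, RAB34, RAB39A, RAB39B and RAB41 had none.

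RABs of regulated secretion held 16 exonic clusters in 3 of 9 genes. RAB3B, with the long 3′ UTR of 11971 nt, had 10 in 7 libraries. RAB27A, which docks secretory granules, had 5 in 5 IGF2BP libraries, all at a site 1636 nt after its stop codon. RAB3D had 1 exonic cluster and 8 intron clusters, and its intron site in 7 IGF2BP libraries lies in coding sequence of TMEM205 on the same strand. RAB26, RAB27B, RAB37, RAB3A, RAB3C and RAB44 had no cluster. Of the 6 remaining genes, RAB23, a ciliary RAB, had 5 exonic clusters, 4 of them in the IGF2BP1 libraries. RAB28 and RAB40C had 1 each, and RAB40A, RAB40AL and RAB40B had none.

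The IGF2BP libraries had a larger share of their clusters in RAB genes than the METTL1 and WDR4 libraries. The share ranged from 0.361% to 0.495% in the 8 IGF2BP libraries, with a median of 0.433%. It was 0.181% and 0.289% in the METTL1 libraries and 0.195% and 0.348% in the WDR4 libraries. The groups did not overlap, and the closest values were those of IGF2BP2 replicate 2 and WDR4 replicate 2. The means were 0.430% ± 0.0400 (SD, n = 8) and 0.253% ± 0.0792 (SD, n = 4). They differed by 0.177 percentage points in a two-sided exact permutation test over all 495 splits (p = 0.00202, the smallest possible; adjusted p = 0.00505 over 5 such tests). Of exonic clusters alone the groups overlapped, with 0.563% to 0.704% in the IGF2BP libraries and 0.335% to 0.651% in the METTL1 and WDR4 libraries, where WDR4 replicate 2 lay above 3 IGF2BP libraries. The means of 0.649% and 0.468% differed by 0.181 points (exact permutation p = 0.00808). Without RAB5B, RAB5C and RAB7A the difference in the share of all clusters was 0.110 points (exact permutation p = 0.00404). With the protein as the unit, which leaves 3 values against 2, the exact p could not go below 0.1 and was 0.1.

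**Figure D3:**
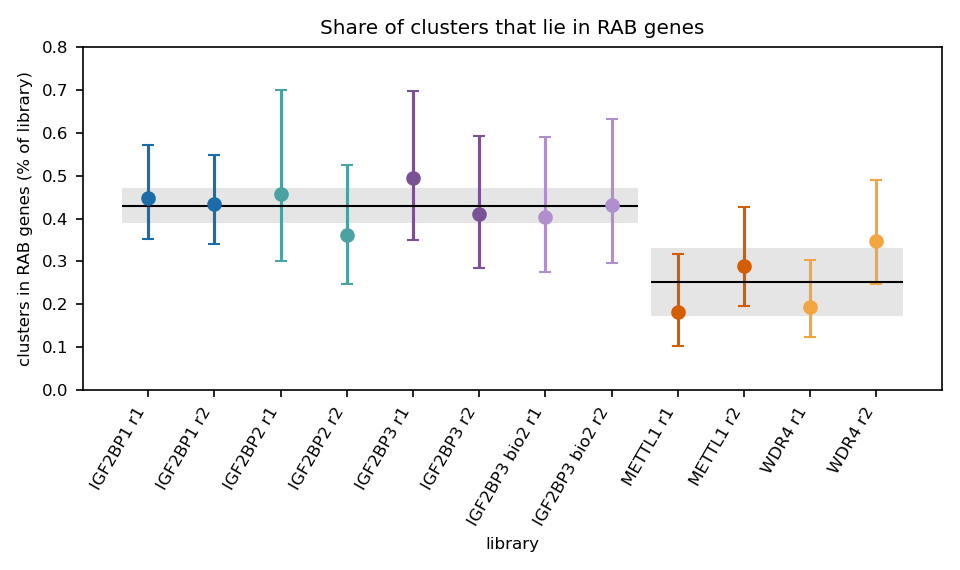
Percentage of the clusters of each library that lie in RAB genes (y axis) by library (x axis). Points are libraries with 95% Wilson intervals, which cover counting error only, black lines are group means and grey bands are ± 1 SD over the 8 IGF2BP and the 4 METTL1 and WDR4 libraries. The IGF2BP libraries sit between 0.361% and 0.495%, all above the METTL1 and WDR4 libraries, whose highest value is 0.348%.

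More RAB genes had exonic clusters in the IGF2BP libraries, 13 to 26 per library with a median of 14, than in the METTL1 and WDR4 libraries, which had 8 and 9 and 7 and 12. The groups did not overlap. Per 1000 clusters of the library the means were 2.17 ± 0.463 (SD, n = 8) and 1.07 ± 0.258 (SD, n = 4), which differed by 1.10 (exact permutation p = 0.00202, adjusted p = 0.00505). Per 1000 protein-coding genes with an exonic cluster, the difference was 1.23 and not past the threshold (exact permutation p = 0.141), so this call depends on the scale.

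Gene by gene, the number of libraries of each group with an exonic cluster was compared by a two-sided Fisher's exact test over 5895 genes. No RAB gene and no other gene passed after Benjamini-Hochberg adjustment (percent called 0). At an unadjusted p under 0.05, 5 of 33 RAB genes were found in a larger share of IGF2BP libraries, or 15.2%, against a background of 4.63%. RAB22A and RAB8A had 7 IGF2BP libraries and 0 of METTL1 and WDR4 (Fisher's exact p = 0.0101, adjusted p = 0.354), and RAB14, RAB2A and RAB9A had 8 and 1 (Fisher's exact p = 0.0182, adjusted p = 0.355). No RAB gene had an unadjusted p under 0.05 in the opposite direction (background 0.492%). The count of 5 was 2 without METTL1 replicate 1 and 4 without METTL1 replicate 2. It was 3 without WDR4 replicate 1 and 3 without WDR4 replicate 2. With 1 of these libraries left out, a gene with 8 and 1 cannot have a Fisher's exact p under 0.05. The count could therefore fall from the smaller group alone, and the background was not determined for these settings. Exonic clusters in IGF2BP libraries alone were found in 13 RAB genes (39.4%, background 39.7%) and in METTL1 or WDR4 libraries alone in 4 (12.1%, background 14.9%), namely RAB11B, RAB30, RAB40C and RAB5A, each with 1 cluster.

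Of the RAB clusters in IGF2BP libraries, most lay in 3′ UTRs. The 3′ UTR share was 69.2% to 82.4% in the IGF2BP libraries with a median of 74.0%, and 75.0% and 40.0% in the METTL1 libraries and 42.1% and 43.8% in the WDR4 libraries. METTL1 replicate 1 overlapped the IGF2BP libraries with 9 of only 12 RAB clusters in 3′ UTRs (95% Wilson interval 46.8% to 91.1%), and the other 3 lay below all of them. The means were 75.1% ± 5.04 (SD, n = 8) and 50.2% ± 16.6 (SD, n = 4), which differed by 24.9 percentage points (exact permutation p = 0.0101, adjusted p = 0.0126). Other protein-coding genes had the same difference of 24.9 points, with means of 54.2% and 29.4%, and RAB genes exceeded them by a mean of 20.9 and 20.8 points in the 2 groups. The intron share showed the opposite order, 15.7% ± 4.71 (SD, n = 8) against 43.8% ± 18.3 (SD, n = 4), and differed by -28.1 points (exact permutation p = 0.0101, adjusted p = 0.0126), against 22.7% and 53.7% in other genes, which differed by -30.9 points. Among exonic clusters alone the 3′ UTR share did not differ beyond the spread (difference -3.27 points, exact permutation p = 0.358). With clusters at or above the median width of their library the 3′ UTR difference was 14.9 points (exact permutation p = 0.194).

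Intron clusters of RAB genes were counted by how often their centre occurs in the genome. The 8 IGF2BP libraries had 45 in 9 genes, of which 10 (22.2%) had a centre that occurred more than once in the genome. The 4 METTL1 and WDR4 libraries had 42 in 17 genes, and 21 of them (50.0%) had such a centre. The same count was not made for intron clusters of other genes, and these shares were not tested. Clusters were pooled over libraries, so recurring single-copy sites weigh more, such as those of RAB5A, RAB3D and RAB2B in 7, 7 and 6 IGF2BP libraries. With clusters of single-copy centre alone the intron difference was -24.4 points (exact permutation p = 0.0162). The intron sites found in at least 6 libraries are printed because they are the recurring ones, with capitals as in the first list. They lie in RAB5A (chr3:19953046-19953075, plus strand, 10 libraries), RAB2B (chr14:21468064-21468093, minus strand, 9 libraries, 278 nt from the nearest exon), RAB3D (chr19:11345320-11345349, minus strand, 7 libraries, in TMEM205 coding sequence as said above) and RAB17 (chr2:237585202-237585231, minus strand, 6 libraries of IGF2BP1 and IGF2BP3, 186 nt from the nearest exon). The centres of the RAB17 clusters occurred at a median of 9 places in the genome, and those of the other 3 sites at 1.
RAB2B: acaCATTcaacactaactctcCATCttccc
RAB3D: tctacttccaCATCtccatgggctgtgcct
RAB17: CATCtccaaattcactCATTCATTtactca
RAB5A: cctctctctttattattttattaaaacaat

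The RAB2B, RAB3D and RAB17 windows hold 2, 1 and 3 of the 4-base forms, and the RAB5A window holds none. RAB1A had an intron site in both WDR4 libraries and in no other library (chr2:65082049-65082068), the only RAB intron site found in 2 libraries of METTL1 or WDR4 and in none of IGF2BP proteins.

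Compared with other protein-coding genes in the same library, RAB genes had a larger part of their clusters in 3′ UTRs in 12 of 12 libraries. In other genes the 3′ UTR share was 48.0% to 60.4% in the IGF2BP libraries and 27.9% to 30.7% in the METTL1 and WDR4 libraries. The excess in RAB genes was 15.1 to 31.9 points in the IGF2BP libraries with a median of 19.7. It was 44.3 and 10.8 points in the METTL1 libraries and 12.4 and 15.9 points in the WDR4 libraries. Over all 12 libraries the mean excess was 20.8 points ± 9.47 (SD; exact sign-flip permutation p = 0.000488, the smallest that 12 libraries allow; adjusted p = 0.00195 over 4 such tests). Without RAB5B, RAB5C and RAB7A the excess was 11.9 points (exact sign-flip permutation p = 0.00195). In the annotation the 3′ UTR made up a median of 68.4% of a RAB mRNA and 39.8% of other mRNAs, and the part of this in the excess was not tested.

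**Figure D4:**
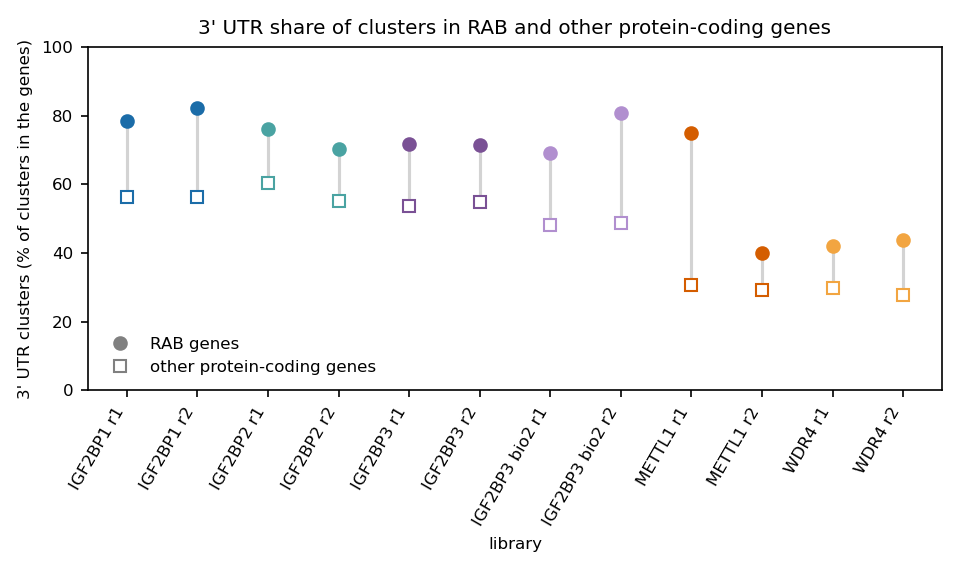
Percentage of clusters that lie in 3′ UTRs (y axis) among clusters of RAB genes (filled circles) and of other protein-coding genes (open squares) in each library (x axis), joined by a grey line. The circle lies above the square in all 12 libraries, by 10.8 to 44.3 percentage points.

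As a fraction of the length of the 3′ UTR, RAB clusters lay nearer to the stop codon than those of other genes. Distances in nt were not compared. Among genes with an exonic cluster, the median 3′ UTR was 2464 nt for RAB genes and 1882 nt for other protein-coding genes. With the stop codon set to 0 and the transcript end to 1, the median position of RAB clusters was lower than that of other genes in all libraries but METTL1 replicate 2, with a mean difference of -0.0775 ± 0.0820 (SD; exact sign-flip permutation p = 0.0103, adjusted p = 0.0205). In the IGF2BP libraries the differences ran from -0.116 to -0.00267. This rested on the same 3 genes, since without RAB5B, RAB5C and RAB7A the difference was -0.0304 (exact sign-flip permutation p = 0.523). Of the 265 3′ UTR clusters of RAB genes, 100 (37.7%) lay at positions below 0.25 on this scale, and of the 34004 of other genes, 29.9% did.

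The 4-base forms CATA, CATC and CATT, read on the transcript strand alone, were in 107 of 224 RAB windows of 30 bases in 3′ UTRs of the IGF2BP libraries (47.8%) and in 15 of 41 of the METTL1 and WDR4 libraries (36.6%). Of all windows of the same length from 3′ UTR clusters of other genes, 48.4% and 29.7% held one. Per library the RAB share was 39.3% to 66.7% in the IGF2BP libraries with a median of 51.3%, 33.3% and 20% in the METTL1 libraries and 37.5% and 50.0% in the WDR4 libraries, so the groups overlapped. The means, 50.7% ± 9.54 (SD, n = 8) and 35.2% ± 12.4 (SD, n = 4), differed by 15.5 points (exact permutation p = 0.0404, adjusted p = 0.0404). This call was lost when any one of 7 libraries was left out (IGF2BP2 replicate 2, IGF2BP3 replicate 1, both bio2 libraries, both METTL1 libraries or WDR4 replicate 1), with exact permutation p of up to 0.145, and without RAB5B, RAB5C and RAB7A the difference was 5.44 points (exact permutation p = 0.576).

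RAB and other genes in the same library differed in the share of windows with one of these forms by 1.86 points ± 11.3 (SD), with RAB genes higher in 7 of 12 libraries (exact sign-flip permutation p = 0.575, adjusted p = 0.767). The sign of this difference depended on which clusters were used. With single-copy centres alone the difference was -12.9 points (exact sign-flip permutation p = 0.000488), and without RAB5B, RAB5C and RAB7A it was 16.2 points (exact sign-flip permutation p = 0.00391). The share of exonic clusters with a single-copy centre was 74.3% for RAB genes and 72.6% for other protein-coding genes (mean difference per library -0.541 points, exact sign-flip permutation p = 0.828).

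The exonic RAB clusters merged into 92 sites. A single library accounted for 38 of them (41.3%), against 43.9% of 16126 sites of other protein-coding genes, and 2 were present in all 12 (2.17% against 0.719%). IGF2BP libraries alone had 61 sites (66.3% against 60.2%), METTL1 or WDR4 libraries alone had 12 (13.0% against 19.1%), and 19 had both (20.7% against 20.7%). Sites found in at least 2 IGF2BP libraries and in no METTL1 or WDR4 library numbered 35 (38.0% against 34.1%), and the reverse was found at 0 sites (against 1.25%), with 8 libraries on one side and 4 on the other. These shares were not tested. Of the sites, 18 were found in at least 6 libraries, and 11 of these (61.1%) held one of the 4-base forms, as did 12 of the 38 found in 1 library (31.6%). The same shares were not determined for sites of other genes, and this contrast was not tested. The identical RAB6A and RAB6D windows count separately among the 18, which also include the RAB2B site with a median of 169 places. The 6 sites present in all 8 IGF2BP libraries were 2 in RAB7A and 1 each in RAB5B, RAB5C, RAB9A and RAB14.

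Of the reproducible 3′ UTR sites of IGF2BP1 in RAB genes, 16 of 43 (37.2%) overlapped a cluster of METTL1 or WDR4, and 39.6% of those in other genes did. The shares were 8 of 12 (66.7%) and 73.3% for IGF2BP2, and 11 of 25 (44%) and 38.4% for IGF2BP3. The 2 replicates of a label shared 76.7% of their RAB clusters for IGF2BP1, 62.5% for IGF2BP2, 80.0% for IGF2BP3 and 65.4% for IGF2BP3 bio2, but 10.8% for METTL1 and 31.4% for WDR4. For clusters of other protein-coding genes the same pairs shared 72.2%, 53.4%, 75.0%, 67.9%, 21.5% and 24.2%, in that order. Libraries of different IGF2BP proteins shared 38.3% to 76.4%, with a mean of 51.4% over 20 pairs (37.8% for other genes). For RAB clusters both the METTL1 and the WDR4 replicates lay below the lowest of these, but the METTL1 libraries held only 12 and 25 RAB clusters. For other genes the pairs of different IGF2BP proteins went down to 19.5%, below the METTL1 (21.5%) and WDR4 (24.2%) replicates. Only the pairs of IGF2BP2 with bio2 libraries lay that low, at 19.5% to 19.7%, and the lowest of the remaining pairs shared 29.2%. Between libraries of an IGF2BP protein and of METTL1 or WDR4 the mean was 25.2% (19% for other genes). The bio2 libraries shared 55.4% of RAB clusters with the other IGF2BP3 libraries (38.8% for other genes). At RAB2A, RAB5C and RAB8B both bio2 libraries had a site that neither other IGF2BP3 library had, and 8 sites showed the reverse.

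Genes that act on RABs were counted in the same way. Of 8 genes for prenylation and recycling of RABs, IGF2BP1 had reproducible exonic sites in 3 (37.5%), among them GDI2, a GDP dissociation inhibitor, CHML, an escort protein, and RABIF. Of 39 genes for exchange factors the count was 7 (17.9%), and RGP1 and DENND4B had sites of 3 proteins each. Of 38 genes for GTPase-activating proteins it was 11 (28.9%), with RABGAP1L and TBC1D5 each having sites of all 3 IGF2BP proteins and none of METTL1 or WDR4. Of 44 effector genes it was 10 (22.7%), including MYO5A, a myosin motor, and ACBD3, a Golgi adaptor. Small GTPases of other families had sites in 14 of 40 genes (35.0%), and ARF3 and ARF1 had sites of 4 proteins each. All 5 of these IGF2BP1 percentages lay above the 15.6% of all protein-coding genes. Those of the other small GTPases and of prenylation and recycling lay above the 32.8% of RAB genes. This did not hold for every IGF2BP protein. For IGF2BP2, with a background of 5.78%, only the other small GTPases (15%) lay above it. Its shares were 0% for prenylation and recycling, 5.13% for exchange factors, 5.26% for GTPase-activating proteins and 4.55% for effectors. For IGF2BP3, with a background of 13.7%, exchange factors lay below it at 12.8%. The other lists lay above it, at 18.4% to 37.5%. METTL1 had a reproducible site in none of these lists of 8, 38 and 44 genes for prenylation and recycling, GTPase-activating proteins and effectors, with 2.84% of all protein-coding genes as background, so a count of 0 is near it. These counts were not tested.

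**Figure D5:**
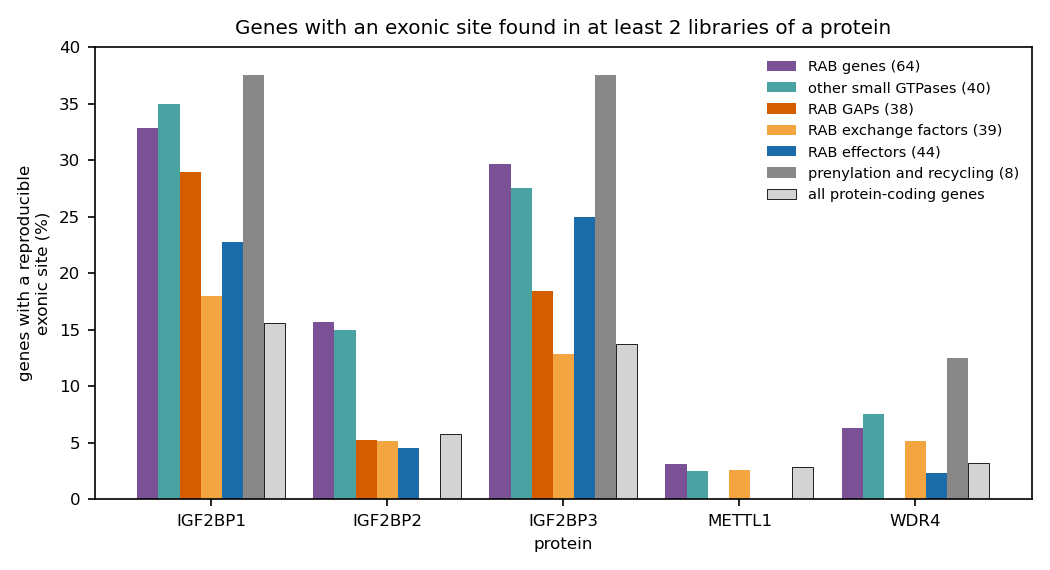
Percentage of genes (y axis, bars from 0) with an exonic site found in at least 2 libraries of each protein (x axis) among RAB genes, 5 lists of related genes and all protein-coding genes, with the number of genes in brackets. RAB genes are at 32.8% for IGF2BP1 and 29.7% for IGF2BP3, against 15.6% and 13.7% of all protein-coding genes, and at 3.12% for METTL1.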

How the data were processed

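The authors deposited intervals in place of counts, and the deposited unit falls under no standard measure (other): a line holds where 1 cluster of 1 library lies in hg38, with neither a score nor a read count. Per the study's methods, the authors removed low-quality reads, clipped adapters, collapsed identical reads, mapped with bowtie allowing mismatches and several places per read, and called clusters with PARalyzer. Tool versions are not given in the sources used here, and the submitters' processing notes name hg38 and Bowtie. Reads that match several places can put clusters on copies of a gene.

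Starts were read as counted from 1. Midpoints were classed against GENCODE release 44 on the same strand, with coding sequence before 3′ UTR, 5′ UTR, other exon and intron. Exonic means coding sequence or UTR of protein-coding transcripts. A centre is the 20 bases at the middle of a cluster, and its copies were counted on both strands of hg38 without alternate contigs. Sites merged clusters overlapping by at least 1 nt. The groups of 8 and 4 libraries were set against each other by exact permutation of the library labels, two-sided, on the mean difference (threshold 0.05), RAB and other genes by exact sign-flip tests over 12 libraries, and single genes by Fisher's exact test with Benjamini-Hochberg adjustment, after checks on simulated data. Plates were seeded separately for each replicate per the methods, but the labels do not say which libraries were separate cultures, so p-values measure the spread between libraries, which may be technical. Shares of 1 library carry 95% Wilson intervals, and the number of clusters sets their precision.

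The genes described in full were the 12 RAB genes whose best exonic site was in the most libraries, the 3 RAB genes with the most reproducible sites of each protein, and every RAB gene with a reproducible METTL1 or WDR4 site, and up to 3 genes of each related list. Sequence of RAB2A is not printed. The members and lists were chosen with earlier results of these data known. Python 3.11.15, pandas 2.3.3, numpy 2.4.6, scipy 1.17.1, pysam 0.24.0, samtools 1.23.1 and matplotlib 3.10.9 were used. Alternatives changed the libraries, the unit of the test, the clusters, the annotation, the denominator, the window and the motif.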

Additional observations from a re-analysis of the deposited data

Results flagged for a closer look

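METTL1 replicate 1 stood apart from the other METTL1 and WDR4 libraries in 3 linked measures of its 12 RAB clusters. Its gap to the nearest of the other 3 libraries exceeded Dixon's critical value for the 3′ UTR share of RAB clusters (75.0%), for the intron share (16.7%) and for the excess of the 3′ UTR share over other genes (44.3 points). The measures share the same 12 clusters, and 27 sets of values were checked, of which chance alone would pick out about 1 in 20. Without this library the 3′ UTR difference between the groups was 33.1 points and the intron difference -37.2 points, both by exact permutation tests with p = 0.00606.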

How the results depend on the processing

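Of 240 recomputed values, 201 kept their direction and side of the threshold or, for counts, stayed within 1.5 times. The 201 include 15 recounts of the 0 genes that passed after adjustment. They also include 13 values of the single-copy share and 18 of the motif share between RAB and other genes, which were not past the threshold at first. With the protein as the unit no exact test could pass. The differences between groups were 0.175 (cluster share), 25.5 (3′ UTR share), -27.5 (intron share), 1.05 (genes per 1000 clusters) and 14.0 (motif share). The exact permutation p was 0.1, the smallest possible, for cluster, 3′ UTR and intron share. It was 0.2 for genes per 1000 clusters and 0.3 for motif share. Between RAB and other genes the differences were 20.6 (3′ UTR share), -0.0779 (position) and 0.0719 (single-copy share, sign turned). With clusters at or above the median width the values were 14.9 (3′ UTR share), -17.1 (intron share) and 21.7 (motif share) between groups, and -0.0416 (position), 12.1 (single-copy share, turned) and -2.57 (motif share, turned) between RAB and other genes. Among exonic clusters the 3′ UTR difference between groups turned to -3.27. Clusters widened by 10 nt turned the motif difference between groups to -0.734, and the letters CAT turned that between RAB and other genes to -2.29, as did single-copy centres (-12.9). Without the bio2 libraries the motif difference was 11.7 and the single-copy difference turned to 0.809. In alternatives chosen after seeing the data, leaving out RAB5B, RAB5C and RAB7A gave a motif difference of 5.44 between groups, 16.2 between RAB and other genes and a position difference of -0.0304, and genes per 1000 protein-coding genes differed by 1.23. Leaving out clusters in more than 1 gene left 1 RAB gene with a METTL1 site. The cause of these changes was not tested.

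Leaving out 1 library at a time, the group differences ranged over 0.153 to 0.208 (cluster share), 21.5 to 33.1 (3′ UTR share), -37.2 to -24.1 (intron share), 0.986 to 1.19 (genes per 1000 clusters) and 10.4 to 20.4 (motif share). The differences between RAB and other genes ranged over 18.7 to 21.8 (3′ UTR share), -1.75 to 0.793 (single-copy share), 0.323 to 3.31 (motif share) and -0.0940 to -0.0665 (position). The genes at an unadjusted p under 0.05 numbered 2 to 6, and 0 passed after adjustment. Replicate numbers did not pair the libraries, since same-numbered libraries of different groups deviated together with correlations of -0.0505 to 0.0548 over 15 pairs. With replicate number as a block the motif difference of 15.5 had an exact permutation p of 0.0533, and no other call changed. No read depth limits can be given, as the intervals carry no counts.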
